A study of Papio hamadryas with 72 samples.

Results

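The genes described here are all those of the series' probe annotation whose symbol starts with PSMA, PSMB, PSMC, PSMD, PSME, PSMF or PSMG, the symbols of the proteasome. There were 46 such genes among the 16828 that carried 1 symbol per probe. Of these, 43 encode proteasome subunits, activators, an inhibitor or assembly chaperones, and the other 3 (PSMC3IP, PSMD6-AS2 and PSME3IP1) share only the start of the symbol. By role there were 6 subunits of the alpha ring, 7 constitutive subunits of the beta ring, 3 beta subunits of the immunoproteasome, 1 of the thymoproteasome, 5 ATPases and 9 non-ATPase subunits of the 19S cap, 3 chaperones that assemble its base, 4 activators, 1 inhibitor and 4 chaperones that assemble the core. PSMA7, PSMA8, PSMC5, PSMD7 and PSMD13 were not analysed here.

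The proteasome is the barrel-shaped protease that degrades proteins tagged with ubiquitin. Its core is built of rings of alpha and beta subunits, with the cutting sites on PSMB5, PSMB6 and PSMB7, and its 19S cap recognises, unfolds and threads in the substrate. Interferon and cells of the immune system replace the cutting subunits with PSMB8, PSMB9 and PSMB10, which gives the immunoproteasome, a source of peptides for presentation on MHC class I, and skeletal muscle uses the proteasome to remove myofibrillar protein in atrophy.

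The study followed 12 baboons (Papio hamadryas) of about 4.5 years, 6 CON offspring of mothers fed freely and 6 MUN offspring of mothers whose food was restricted while pregnant and nursing, with 3 females and 3 males in each group. Biopsies of liver, of skeletal muscle (vastus lateralis) and of omental fat were taken on chow and again after 7 weeks on HFCS, a Western-style diet with a high fructose drink. This gave 72 arrays in 12 groups of 6. All animals had been weaned to chow and all went on to HFCS, so effects of diet, of time and of the first biopsy cannot be told apart.

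Baboon RNA was hybridised to human BeadChips, and a gene was described in a tissue where its brightest probe had a detection score above 0.95 on at least 6 of the 24 arrays. Differences between arrays of the same probe are given in log2 units of normalised signal, and the level of a probe is not compared with that of another. Per array, 9774 to 14438 probes were detected, outside 4 weak arrays with 3179 to 10136 probes. The weak arrays are liver MUN replicates 4 and 6 on chow, liver MUN replicate 4 on HFCS and muscle CON replicate 5 on chow, and each had a median correlation under 0.9 with the other arrays of its tissue. They were kept in the fits, and the values without them are given beside some of the results they touch. Where no such value is given, a fitted difference and its p include the weak arrays. Ranges of levels, and statements on whether arrays overlap, leave them out. The muscle array of CON replicate 1 on chow had a mean of 11.86 over 4 hepatocyte markers, against a median of 7.11 over the muscle arrays. The other tissue markers followed the labels, with a median of 13.62 for 5 myofiber genes in muscle and 9.70 for 4 adipocyte genes in adipose.

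The genes were detected in most tissues. Signal above the threshold was found for 40 of the 46 genes in liver, 37 in muscle and 41 in adipose, and for 36 in all 3 tissues. PSMB11, the thymoproteasome subunit of the thymic cortex, was not detected in any tissue, and neither were PSMF1, an inhibitor of the core, the ATPase PSMC3 and PSMC3IP, a recombination factor. PSMD6-AS2 in liver and a second probe of PSMB8 in muscle passed with exactly 6 arrays, whereas PSMC3IP in adipose and PSME3IP1 in muscle missed it with 5. The probes of PSMC3 and PSMF1 reached the score on at most 1 array of a tissue. The immunoproteasome subunits were detected unevenly. The brightest probe of PSMB8 was detected on 24 adipose, 16 liver and 0 muscle arrays, that of PSMB9 on 21 adipose, 2 liver and 0 muscle arrays, and that of PSMB10 on 24 adipose, 24 liver and 23 muscle arrays.

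The largest contrast in these genes was between tissues, and most subunits of the standard proteasome were higher in skeletal muscle than in liver or adipose. Of the 42 genes tested between tissues, 7 were higher and 21 lower in liver than in muscle (limma, with calls at an FDR of 0.05 by Benjamini-Hochberg and 1.2-fold or more). Over all 10966 genes tested the call rate was 52.9 percent, 26.4 percent higher and 26.5 percent lower. In adipose against muscle 7 were higher and 21 lower, where 39.7 percent of all genes were called, 23.9 percent higher and 15.8 percent lower. In adipose against liver 7 were higher and 9 lower, where 49 percent of all genes were called, 26.2 percent higher and 22.8 percent lower. Without the weak arrays these counts were 9 and 21, 6 and 24, and 7 and 9. The shares of all genes were then 27.4 and 28.6, 25.6 and 17, and 29.2 and 23.6 percent. Scaling each array to its median in place of quantile normalisation gave 18 higher and 3 lower in adipose against liver (33.4 and 19.8 percent of all genes). The balance of directions between those tissues is therefore not settled by these data. Against muscle it left 6 and 21 in liver (26 and 25.7 percent of all genes) and 10 and 17 in adipose (30.4 and 11.8 percent). Under that scaling PSMA5, PSMB3 and PSME4 were among the genes no longer called lower in adipose than in liver, at -0.26, -0.19 and -0.25.

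The median difference over the 42 genes was -0.35 in liver against muscle, compared with -0.03 over all genes. It was -0.31 in adipose against muscle, compared with -0.02, and 0.03 in adipose against liver, compared with 0.04. Every call kept its direction in each of the 4 groups of maternal diet and offspring diet, that is 28 of 28, 28 of 28 and 16 of 16 genes. The calls were made on the mean of these same groups, so this is a description and no separate support. Among the 36 genes detected in every tissue, 6 were higher and 20 lower in liver than in muscle (53.5 percent of 6417 such genes were called), and 5 were higher and 21 lower in adipose than in muscle (49.1 percent). Of those 6417 genes, 23.6 percent were higher and 29.9 percent lower in liver, and 29.7 and 19.4 percent in adipose. Without the weak arrays, all liver arrays lay below all muscle arrays for 12 of the 42 genes and above them for 1, where the same held for 9.88 and 11.4 percent of all genes. All adipose arrays lay below all muscle arrays for 12 genes and above for 1, against 5.74 and 5.52 percent. Between adipose and liver, 1 gene was separate and lower in adipose (9.79 percent of all genes) and 0 were higher (11.2 percent).

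**Figure D1:**
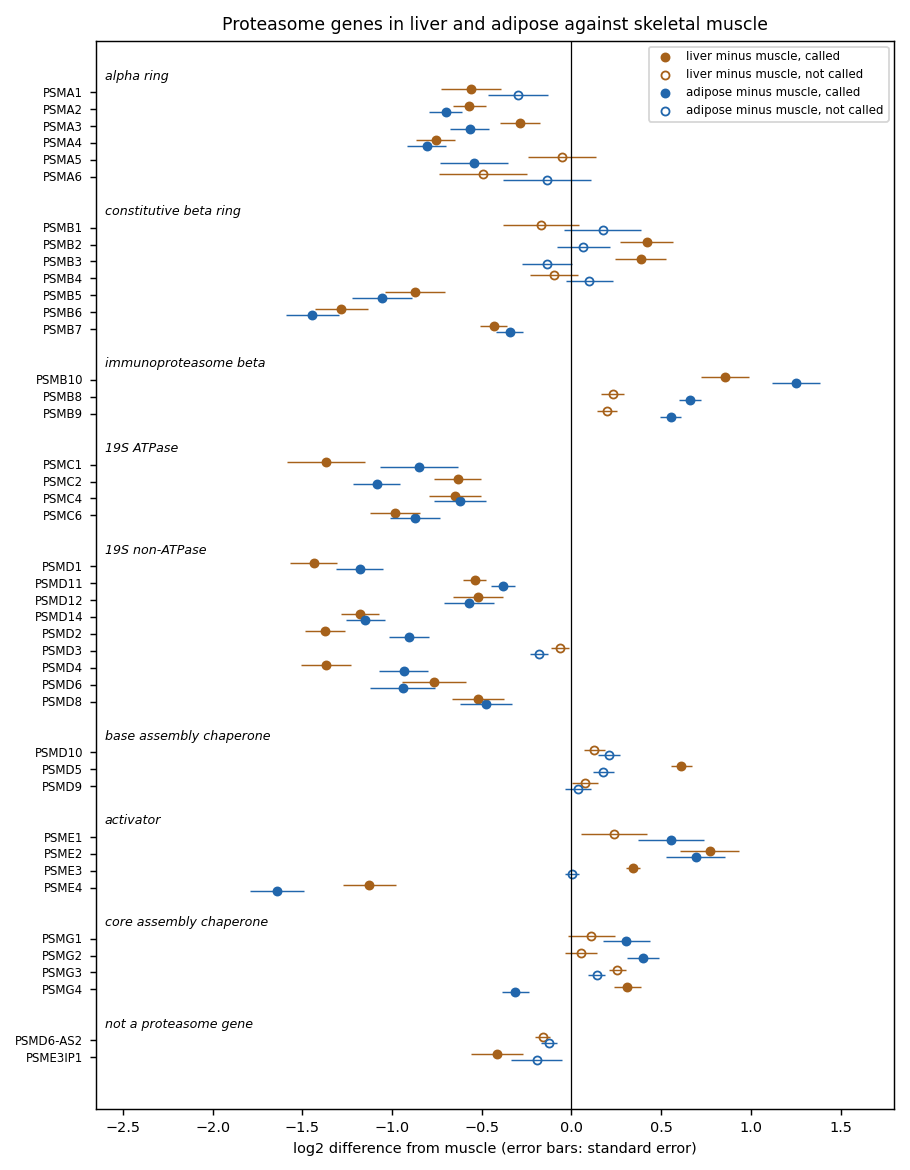
Log2 difference of each gene in liver minus skeletal muscle (brown) and in adipose minus skeletal muscle (blue), ordered by role, with standard errors from limma over 72 arrays. Filled points passed the FDR of 0.05 and the 1.2-fold threshold. The points of the 19S subunits lie to the left of 0, from -1.44 for PSMD1 in liver to -0.07 for PSMD3, and those of the immunoproteasome subunits lie to the right, up to 1.25 for PSMB10 in adipose.

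The contrast took in nearly all of the 19S cap. All 4 ATPases tested, the motor of the cap, were lower in liver and in adipose than in muscle, and so were 8 of 9 non-ATPase subunits in both. PSMD1 and PSMD2 are the large scaffold subunits on which the base is organised. The lowest, median and highest level of PSMD1 was 8.21, 8.46 and 8.74 over 21 liver arrays, 9.56, 9.96 and 10.27 over 23 muscle arrays and 8.36, 8.62 and 9.05 over 24 adipose arrays. Among these arrays, no liver or adipose array reached the lowest muscle array. The difference was -1.44 ± 0.13 (SE) in liver (2.70-fold, adjusted p = 2.54e-15 from limma) and -1.18 ± 0.13 in adipose (adjusted p = 5.36e-12), and it had this sign in 11 of 11 and 12 of 12 animals. PSMD2 gave 8.38, 8.59 and 8.98 as the lowest, median and highest level in liver, 9.72, 10.15 and 10.48 in muscle and 8.85, 9.13 and 9.31 in adipose. It was called in all 3 pairs of tissues, at -1.37 ± 0.11 in liver and -0.90 ± 0.11 in adipose against muscle and 0.47 ± 0.11 in adipose against liver (adjusted p = 2.36e-17, 1.71e-10 and 0.000192 from limma), although liver and adipose arrays overlapped.

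The remaining called cap subunits include some by which the proteasome accepts its substrate. PSMD4, a ubiquitin receptor, was lower in liver by 1.37 and in adipose by 0.94 log2 units. Its levels ran from 8.92 to 9.50 in liver, from 9.80 to 10.98 in muscle and from 9.00 to 9.64 in adipose, so that muscle stood apart from both. PSMD14, the deubiquitinase that cuts off the ubiquitin chain, had medians of 9.71 in muscle, 8.43 in liver and 8.39 in adipose and differences of -1.18 and -1.15 (adjusted p = 3.05e-15 and 1.39e-14 from limma). Its muscle range of 8.79 to 10.19 met the adipose range, which reached 8.87, and not the liver range, which ended at 8.77. The other called non-ATPase subunits, PSMD6, PSMD8, PSMD11 and PSMD12, had differences between -0.94 and -0.38 over both tissues. PSMD3 was the exception, at -0.07 in liver and -0.18 in adipose, and was detected on 13 to 16 arrays of a tissue.

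Among the ATPases, PSMC1 had the largest difference in liver, -1.37 ± 0.22 (adjusted p = 1.14e-07 from limma), with levels from 10.21 to 10.93 in liver and from 11.43 to 11.92 in muscle. PSMC6 was at -0.98 in liver and -0.87 in adipose, PSMC2 at -0.63 and -1.09, and PSMC4 at -0.65 and -0.62. Without the weak arrays PSMC1 was at -1.19 in liver, and PSMC6 was at -1.21 in liver and -1.06 in adipose. A second probe of PSMC6, detected on 14 liver, 9 muscle and 0 adipose arrays, showed no call between liver and muscle (difference 0.03). The other probes of PSMC4 and PSMD6 were lower in liver and adipose than in muscle, as their brightest probes were. PSMC1 and PSMD4 were also called higher in adipose than in liver, at 0.52 and 0.43, but at 0.14 and 0.24 without the weak arrays, when they were below the fold threshold.

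In the core the picture was divided. The alpha subunits, which form the gate, followed the cap, with 4 of 6 lower in liver and 4 of 6 lower in adipose than in muscle, and 5 and 6 of 6 without the weak arrays. PSMA4 was at -0.76 and -0.81, PSMA2 at -0.57 and -0.70 and PSMA3 at -0.29 and -0.57. Without the weak arrays PSMA4 was at -1.03 and -0.93 and PSMA3 at -0.51 and -0.68. PSMA5 was lower in adipose than in both other tissues, at -0.54 against muscle and -0.49 against liver, and at -0.05 in liver against muscle. PSMA6 was at -0.49 and -0.14 with no call, and was called lower in both tissues without the weak arrays, at -0.44 and -0.34. Its second probe was called lower in both with all arrays, at -0.39 and -0.40.

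Of the constitutive beta subunits, the 3 that cut were lower in liver and in adipose than in muscle. The 4 without a cutting site (PSMB1, PSMB2, PSMB3 and PSMB4) were not, although PSMB3 passed in adipose, at -0.28, without the weak arrays. PSMB6, the caspase-like subunit, had 8.26, 8.63 and 8.87 as its lowest, median and highest level in liver, 9.50, 10.00 and 10.41 in muscle and 8.14, 8.39 and 8.71 in adipose. Without the weak arrays, all muscle arrays lay above all others. Its differences were -1.28 ± 0.15 in liver and -1.44 ± 0.15 in adipose (adjusted p = 9.92e-12 and 2.55e-13 from limma). PSMB5, the chymotrypsin-like subunit, had 9.69, 10.05 and 10.23 in liver, 10.37, 11.00 and 11.39 in muscle and 9.41, 9.83 and 10.29 in adipose. It too did not overlap with muscle in either tissue, and was lower by 0.87 in liver and 1.06 in adipose (SE 0.17, adjusted p = 5.1e-06 and 1.28e-07 from limma). PSMB7, the trypsin-like subunit, had medians of 9.23, 9.64 and 9.37 in liver, muscle and adipose with overlapping arrays, and differences of -0.43 and -0.34. Under median scaling the adipose difference of PSMB7 was 0.00. PSMB2 and PSMB3 went the other way in liver, at 0.42 and 0.39 above muscle, of which PSMB3 was at 0.23 and not called without the weak arrays. They were lower in adipose than in liver, at -0.35 and -0.52.

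The immunoproteasome subunits had the opposite order. PSMB8 and PSMB10 were higher in adipose than in muscle and than in liver, and PSMB10 was also higher in liver than in muscle. PSMB8 in muscle, and PSMB9 in muscle and on most liver arrays, were not well above background, so that only bounds or detection can be given for them there. No fold of either is given for liver against muscle. PSMB10, which takes the place of PSMB7, had 8.38, 8.97 and 9.77 as its lowest, median and highest level in muscle, 9.23, 9.62 and 11.08 in liver and 9.69, 10.26 and 10.90 in adipose. The ranges touched, yet the animals' own differences had 1 sign, with adipose above muscle in 12 of 12 and liver above muscle in 11 of 11. The difference was 1.25 ± 0.13 in adipose against muscle (2.38-fold, adjusted p = 9.53e-13), 0.86 ± 0.13 in liver against muscle (adjusted p = 5.42e-08) and 0.40 ± 0.13 in adipose against liver (adjusted p = 0.0067, limma), the last at 0.59 without the weak arrays and at 0.18, with no call (adjusted p = 0.205 from limma), when only genes detected in each tissue were normalised. Without the weak arrays the liver minus muscle difference was 0.66.

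PSMB8, which replaces PSMB5, had 6.70, 7.03 and 7.24 in muscle, 6.95, 7.24 and 8.09 in liver and 7.36, 7.68 and 8.18 in adipose. Without the weak arrays, all adipose arrays lay above all muscle arrays. As its brightest probe was not well above background on any muscle array, the adipose level is given as at least 1.29-fold higher. This bound is the mean of adipose over the mean of the lowest signal among the detected probes of each muscle array, and carries no p. Against liver, where 16 of 24 arrays detected it, adipose was higher by 0.43 ± 0.06 (adjusted p = 9.43e-09 from limma). The 2 other probes of PSMB8 were detected on 9 adipose and 4 liver arrays or fewer. They gave differences of -0.01 and 0.00 between adipose and liver with no call, so that contrast rests on the brightest probe. Against muscle the second of them, detected there on 0 arrays, was called higher in adipose, and the first was not. PSMB9, which replaces PSMB6, was detected on 21 adipose, 2 liver and 0 muscle arrays, with measured medians of 7.31, 6.91 and 6.77. It entered the comparison only through adipose, where it was highest, and its bound against muscle of 1.00-fold sets no size, so its calls in adipose are given without a difference or a p.

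**Figure D2:**
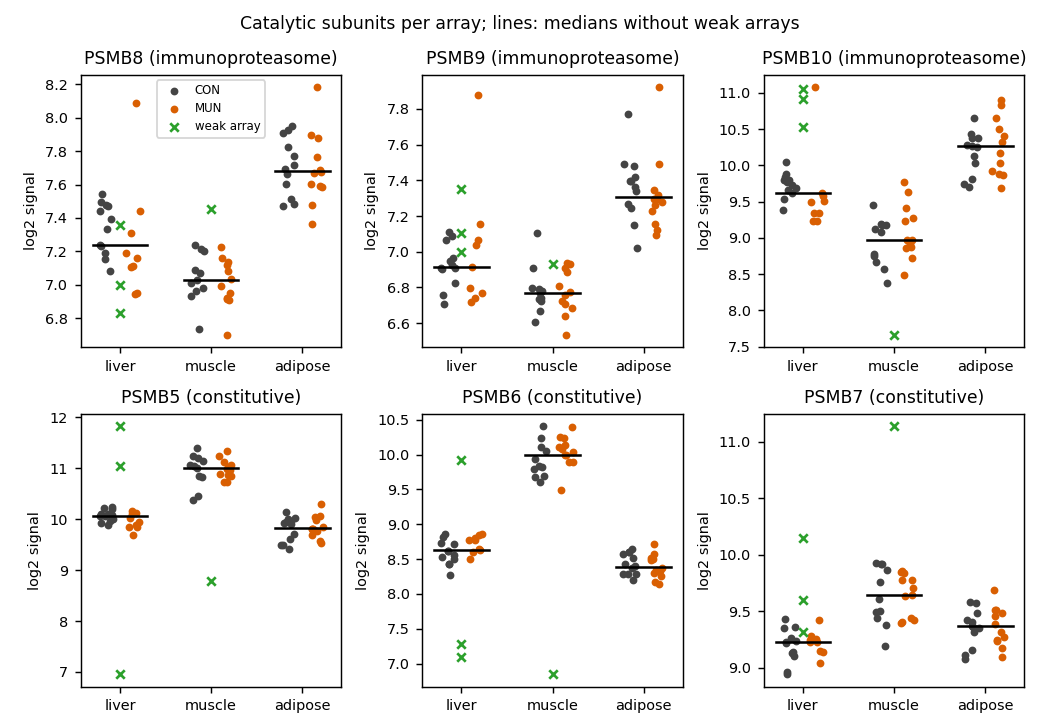
Log2 signal of the immunoproteasome subunits (upper row) and of the constitutive subunits they replace (lower row) on each array by tissue, with CON in grey, MUN in orange and the 4 weak arrays as green crosses, and black lines at the medians without the weak arrays. PSMB5 and PSMB6 are highest in muscle, at medians of 11.00 and 10.00, and PSMB8, PSMB9 and PSMB10 are highest in adipose, at 7.68, 7.31 and 10.26. Each panel has its own axis.

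PSMB10 and its counterpart PSMB7 were both detected in all 3 tissues, and for each animal their tissue differences were set side by side, which leaves out the brightness of either probe. The adipose minus muscle difference was larger for PSMB10 than for PSMB7 in 12 of 12 animals, by 0.63 to 1.93 log2 units (median 1.49). In liver against muscle it was larger in 11 of 11 animals, by 0.10 to 1.44 (median 1.28), and in adipose against liver in 10 of 11, from -0.04 to 0.66 (median 0.53). These are descriptions built from the calls above, without a test.

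Markers of leukocytes, the cells in which the immunoproteasome is most abundant, were also higher in liver and adipose than in muscle, but not in adipose than in liver. Of 18 leukocyte markers listed, 15 were tested, 14 of them detected in liver, 10 in muscle and 14 in adipose. Their mean level ran from 7.34 to 7.71 over the muscle arrays (median 7.47), from 8.03 to 8.77 over the liver arrays (median 8.40) and from 7.83 to 8.52 over the adipose arrays (median 8.16). In these bulk biopsies fewer cells of a type and less RNA per cell cannot be told apart, and the part of leukocytes in the difference was not tested. Between adipose and liver 2 of the 15 markers were called higher and 3 lower in adipose. Of all genes, 26.2 percent were called higher and 22.8 percent lower there.

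The activators of the core split in the same way against muscle. PSME1 and PSME2 form the 11S ring that interferon induces, and both were higher in adipose than in muscle, at 0.55 and 0.69 (adjusted p = 0.00819 and 0.000246 from limma). PSME2 had 8.31, 8.73 and 9.03 as its lowest, median and highest level in muscle, 9.26, 9.59 and 10.72 in liver and 8.83, 9.32 and 10.06 in adipose. Without the weak arrays, every liver array lay above every muscle array. The fitted difference over all arrays was 0.77 ± 0.16 (adjusted p = 3.49e-05 from limma). In adipose against liver PSME2 was at -0.08 with no call, and at -0.28 with a call without the weak arrays. PSME1 was at 0.24 in liver against muscle with no call, and at 0.46 with a call without the weak arrays. PSME4, the large activator PA200 that works without ubiquitin, showed the reverse. Its lowest, median and highest levels were 8.82, 9.25 and 9.68 in liver, 10.07, 10.41 and 10.86 in muscle and 8.44, 8.66 and 9.20 in adipose. Its adipose level was 3.12-fold lower than that of muscle, the largest difference of any member, at -1.64 ± 0.15, and its liver level lay between, at -1.13 ± 0.15 against muscle (adjusted p = 3.15e-15 and 7.64e-10 from limma). Adipose was lower than liver by 0.51 (adjusted p = 0.00183) and in 11 of 11 animals. PSME3, the nuclear activator, was detected on 17 liver, 1 adipose and 0 muscle arrays, so no difference between tissues is given.

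The assembly chaperones were divided. PSMD5, which holds the base before it joins the core, was higher in liver than in muscle by 0.61 and lower in adipose than in liver by 0.44 (adjusted p = 2.68e-14 and 2.29e-09 from limma), while PSMD9 and PSMD10 were not called. Of the chaperones that build the alpha ring, PSMG2 was higher in adipose than in both other tissues, at 0.40 and 0.35, and its partner PSMG1 was higher in adipose than in muscle at 0.31 (0.24 and not called without the weak arrays). PSMG4 was highest in liver, at 8.00 to 8.48 there and 7.30 to 7.99 in adipose, with all liver arrays above all adipose arrays, a difference of -0.62 ± 0.08 in adipose against liver and of 0.31 in liver against muscle (adjusted p = 5.3e-11 and 0.000212 from limma). In adipose it was also lower than in muscle, at -0.31 (adjusted p = 0.000269 from limma), as most alpha subunits were. PSMG3, the partner of PSMG4, was detected on 8 liver, 8 adipose and 0 muscle arrays and was not called, except in liver against muscle without the weak arrays. Of the genes that share only the prefix, PSME3IP1 was called lower in liver than in muscle, though not without the weak arrays, and as it was detected on 0 liver and 5 muscle arrays no size is given.

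Genes that work with the proteasome were compared next. Of 13 partners of the proteasome 10 were tested, and 7 were lower and 1 higher in liver than in muscle, and 9 lower and 1 higher in adipose than in muscle. Their median differences were -0.50 and -0.48, against -0.03 and -0.02 over all genes. Of all genes tested, 26.5 percent were called lower and 26.4 percent higher in liver, and 15.8 and 23.9 percent in adipose. ADRM1, the ubiquitin receptor docked on PSMD1, was at -0.98 and -0.85, and ECPAS, an adaptor of the proteasome, at -1.14 and -0.88. AKIRIN2, which imports proteasomes into the nucleus, was at -1.20 and -0.53, and USP14, a deubiquitinase of the cap, at -0.61 and -0.40. PAAF1, a chaperone of the base, was the 1 called higher. As it was detected on 3 muscle arrays and entered the test through the other tissues, no size is given. Of the 10 partners tested, 8 were detected in muscle. Of 21 genes of ubiquitin supply and shuttling 10 were tested, with 7 lower and 0 higher in liver and 6 lower and 2 higher in adipose. Of these 10 genes, 9 were detected in liver and 9 in adipose. VCP, the unfoldase that hands over ubiquitinated proteins, was called lower in both, its cofactor NPLOC4 was at -0.69 and -0.85 and the shuttle RAD23B at -0.88 and -0.73.

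Of the transcription factors that drive these genes, NFE2L1, which induces all standard subunits when the proteasome is impaired, was lower by 1.21 in liver than in muscle and by nearly the same in adipose. IRF1, which induces the immunoproteasome, was higher by 0.69 and 1.08 and was detected on 6 of the 24 muscle arrays. In all, 1 of 5 regulators tested was higher and 1 lower in liver, and 3 higher and 1 lower in adipose. Of 14 antigen processing genes tested, 5 were higher and 1 lower in liver, and 9 higher and 0 lower in adipose than in muscle. Only 11 of these 14 and 4 of the 5 regulators were detected in muscle, and the rest entered through other tissues. Over all genes 26.4 percent were higher and 26.5 percent lower in liver, and 23.9 and 15.8 percent in adipose, so that the calls of both lists in liver, 2 of 5 and 6 of 14, lie below the 52.9 percent of all genes. They included HLA-E at 0.98 and 1.47, HLA-F at 0.57 and 1.14 and TAPBP at 0.74 and 0.89, while B2M and the peptide transporter TAP1 were called in adipose, at 1.43 and 0.80, and not in liver, at -0.03 and -0.09. Of 8 ubiquitin ligases known in muscle, 5 were lower and 1 higher in both tissues, led by FBXO32 (atrogin-1), at -3.88 and -3.34. Of the 8, 7 were detected in liver and 7 in adipose.

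Maternal diet and HFCS were compared within each tissue. In all 18 comparisons (in each of 3 tissues, the maternal groups on either diet, the diets in either maternal group and over both, and the difference between the changes of MUN and CON), 0 of the 40, 37 or 41 genes passed the adjusted p of limma and the fold threshold. This remained so without the weak arrays, with the animal as a block, without the fold threshold and with the authors' normalised values. Few genes of any kind were called, 6 of 8052 in muscle for HFCS in CON (0.0745 percent), 2 of 9277 in adipose for MUN against CON on HFCS (0.0216 percent), 1 for HFCS over both groups in adipose (0.0108 percent) and 0 percent in the other comparisons. Without the weak arrays 42 genes were called in muscle for HFCS in CON (0.522 percent), none of them a member. With all arrays, between 0 and 6 members had an unadjusted p under 0.05 in a comparison. For liver in HFCS against chow in MUN these were 6 of 40 (9.78 percent of all genes), and 2 without the weak arrays (3.29 percent). In muscle they were 6 of 37 for HFCS in CON (13.3 percent of all genes) and 5 of 37 for MUN against CON on chow (7.34 percent).

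**Figure D3:**
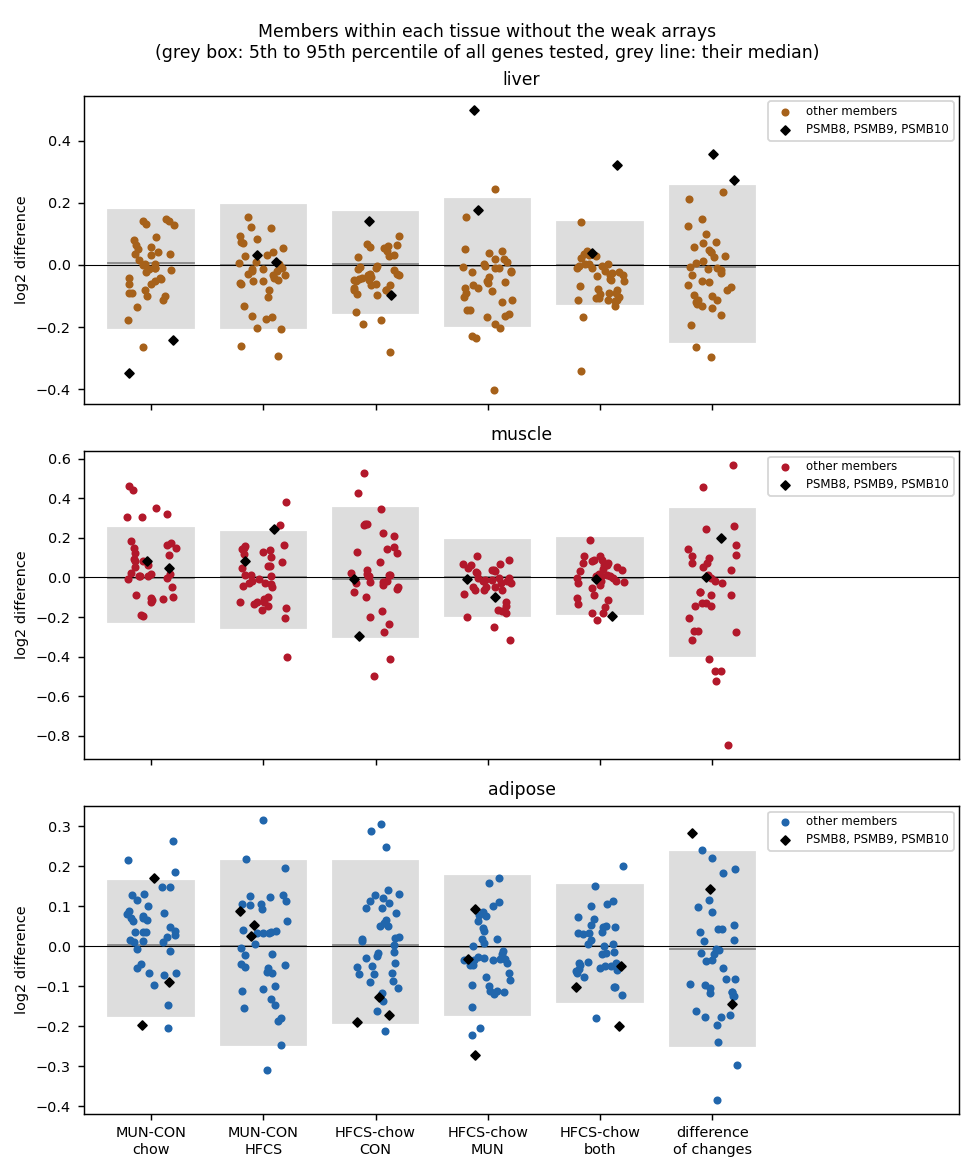
Log2 difference of each gene in the 6 comparisons within liver (upper panel), muscle (middle panel) and adipose (lower panel), without the weak arrays, with PSMB8, PSMB9 and PSMB10 as black diamonds. The grey boxes give the spread of all genes tested between the percentiles named in the title. Most points lie inside the boxes, and the farthest is PSMD12 in muscle, at -0.84 for the difference of changes.

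The weak arrays set the size of many of these differences. In muscle on chow 33 of 37 genes were above 0 in MUN against CON with a median of 0.35 (51 percent of all genes were above 0), and 26 of 37 with a median of 0.05 without the weak CON array (49 percent). For HFCS in CON 29 of 37 were above 0 with a median of 0.33 (50.6 percent of all genes), and 20 of 37 with a median of 0.01 without it (48 percent). In liver the 4 genes with the smallest p for HFCS in MUN, PSMC2, PSME4, PSMA1 and PSMA5, had differences of -1.03, -0.84, -1.10 and -1.18 (adjusted p = 0.47 for each, limma), and of -0.23, -0.40, -0.24 and -0.09 without the weak arrays. The same 3 genes PSMC2, PSMA1 and PSMA5 led the difference of changes in liver, at -1.09, -1.13 and -1.20, and stood at -0.30, -0.26 and -0.11 without these arrays. PSMG4 was the fourth there, at -0.33 and -0.01.

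PSMD12, a lid subunit, gave the smallest p in muscle in 5 of the 6 comparisons. On chow its level was 8.17, 8.24 and 8.56 (lowest, median and highest) in 5 CON and 8.42, 8.71 and 9.09 in 6 MUN arrays. On HFCS it was 8.59, 8.76 and 9.16 in CON and 8.18, 8.46 and 8.71 in MUN. The CON arrays on chow lay below the CON arrays on HFCS without overlap, and the MUN arrays overlapped with both. The animals' changes were above 0 in 5 of 5 CON, from 0.24 to 0.98, and below 0 in 4 of 6 MUN, from -0.91 to 0.29. None of this passed the adjusted threshold. The HFCS difference in CON was 0.71 (adjusted p = 0.172 from limma) and 0.53 without the weak array (adjusted p = 0.0686), that of MUN against CON on chow was 0.63 and 0.44 (adjusted p = 0.548 and 0.553), and the difference of the changes was -1.01 and -0.84 (adjusted p = 0.55 and 0.132). PSMA3, PSMD6 and PSMD14 were the next in MUN against CON on chow, at 0.61, 0.72 and 0.65, and at 0.35, 0.30 and 0.32 without the weak array.

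In muscle on HFCS, PSMB2 was next to PSMD12, at 0.37 in MUN against CON, followed by PSMD10 at -0.13 and PSMD6-AS2 at 0.15. For HFCS in MUN the 4 genes with the smallest p were PSMD12 at -0.30, PSMD5 at 0.11, PSMG4 at -0.16 and PSMB4 at -0.24, and over both groups they were PSMD6 at 0.40, PSMD12 at 0.20, PSMC6 at 0.38 and PSMB7 at -0.23. The adjusted p of these from limma was 0.779 or higher. The values over both groups include the weak CON array on chow. Without it the animals' median changes in CON and MUN were 0.27 and -0.11 for PSMD6 and 0.38 and -0.35 for PSMD12. They were 0.20 and 0.15 for PSMC6 and 0.01 and -0.02 for PSMB7. Outside the proteasome itself, the endoplasmic reticulum chaperone CANX was called for HFCS in CON in muscle, at 0.51 (adjusted p = 0.048 from limma), and was at 0.47 without the weak array (adjusted p = 0.037). NFE2L2, a regulator of antioxidant and proteasome genes, was at 0.95 (adjusted p = 0.0849), and passed at 0.76 without the weak array (adjusted p = 0.039), as did the ligase TRAF6 at 0.38 (adjusted p = 0.048).

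PSME4 gave the smallest p for HFCS against chow over both maternal groups in liver and in adipose. In liver its level in CON was 8.87, 9.16 and 9.24 on chow and 8.72, 8.83 and 9.03 on HFCS, and in MUN it was 8.91, 8.95 and 9.34 on chow (4 arrays) and 8.50, 8.61 and 8.93 on HFCS (5 arrays). The ranges overlapped, and the change was below 0 in each of the 10 animals with both arrays, from -0.43 to -0.02. The difference was -0.55 (adjusted p = 0.966 from limma) and -0.34 without the weak arrays (adjusted p = 0.378). In adipose the change was below 0 in 4 of 6 CON and 6 of 6 MUN animals, with medians of -0.19 and -0.21, and the difference was -0.18 (adjusted p = 0.573). In muscle, where PSME4 was highest, the animals' changes fell on both sides of 0, with medians of 0.06 in CON and -0.15 in MUN.

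**Figure D4:**
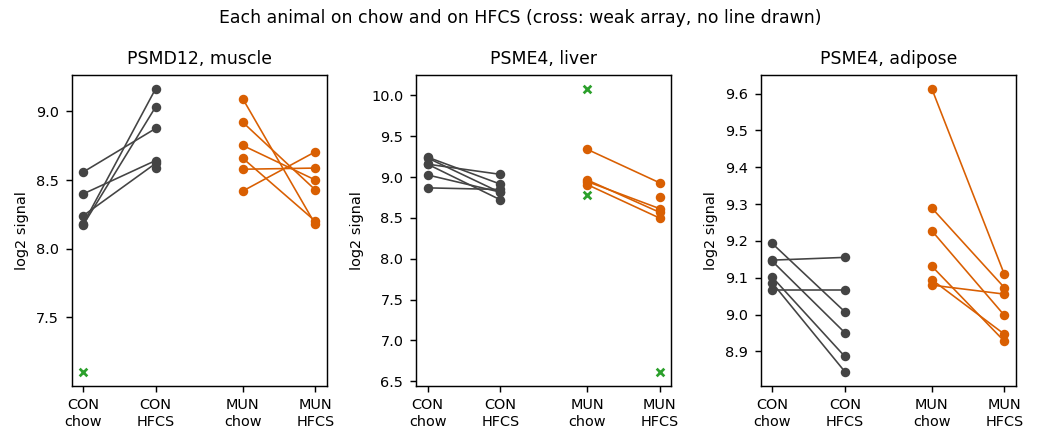
Log2 signal on chow and on HFCS for each animal, joined by a line, of PSMD12 in muscle and of PSME4 in liver and adipose, with CON in grey, MUN in orange and weak arrays as green crosses without a line. PSMD12 is higher on HFCS in 5 of 5 CON animals and lower in 4 of 6 MUN animals. PSME4 is lower on HFCS in 10 of 10 animals in liver. The panels have different axes.

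The other members of smallest p came from every part of the particle. In liver, MUN against CON on chow was led by PSMA4 at 0.52, PSME1 at -0.94, PSMC2 at 0.56 and PSMA3 at 0.39, which were at 0.13, -0.26, 0.13 and 0.04 without the weak arrays. On HFCS it was led by PSME4 at -0.53, PSMA1 at -0.65, PSME3 at 0.11 and PSMB2 at -0.59. These HFCS values include the weak MUN array, and no values without it are given. PSMA4 and PSMA3 are ring subunits of the core and PSME1 part of the 11S activator, and the smallest adjusted p of MUN against CON in liver was 0.768 with all arrays. For HFCS in CON the liver values were -0.26 for PSME4, 0.09 for PSMG3, -0.05 for PSME3 and -0.09 for PSMB7. Over both groups PSMB4, PSMA1 and PSMC2 followed PSME4 at -0.43, -0.54 and -0.48, with the weak arrays included. Without these arrays the animals' median changes in CON and MUN were -0.14 and -0.04 for PSMB4. They were -0.03 and -0.21 for PSMA1 and 0.09 and -0.16 for PSMC2.

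Adipose had no weak array, and its differences lay between -0.38 and 0.32. PSMA4 had the smallest adjusted p of adipose, at -0.25 in MUN against CON on HFCS (adjusted p = 0.253 from limma), followed there by PSMB1 at 0.32 (adjusted p = 0.308), PSMD14 at -0.31 and PSMA3 at -0.19. PSMB1 also led on chow at 0.26, with PSMB3 at 0.22, PSMG3 at -0.21 and PSMC6 at -0.15. PSMB1 and PSMB3 are beta subunits without a cutting site. HFCS in CON was led by PSMD14, the deubiquitinase, at 0.31, PSMB7 at -0.21, PSMA2 at 0.25 and PSMD12 at 0.29. In MUN it was led by PSME4 at -0.22, PSMG4 at -0.20, PSMG2 at 0.17 and PSMB6 at -0.15. Over both groups PSMD9, PSMG2 and PSMD12 followed PSME4 at 0.10, 0.15 and 0.20, and the difference of the changes was led by PSMD14 at -0.38, PSMA2 at -0.30, PSMC6 at 0.24 and PSMB7 at 0.22. After PSMA4 and PSMB1 on HFCS, the smallest adjusted p was that of PSMD14 there, 0.4.

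The immunoproteasome subunits were not called for maternal diet or HFCS. PSMB10 in adipose was 10.21, 10.67 and 10.83 in CON and 10.44, 10.77 and 11.23 in MUN on chow, and 10.11, 10.48 and 11.06 in CON and 10.10, 10.31 and 11.30 in MUN on HFCS. All 4 groups overlapped. PSMB8 in adipose had group medians of 8.18 and 8.04 on chow and 7.95 and 7.89 on HFCS in CON and MUN, and PSMB9 had 7.63, 7.51, 7.52 and 7.45 in the same order. In liver PSMB10 had medians of 9.35 in CON and 8.94 in MUN on chow and of 9.47 and 9.17 on HFCS, and in muscle of 9.10, 9.03, 8.61 and 8.82.

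A single animal stood apart in these genes, MUN replicate 2, which was singled out after its values were seen and is described without a test. From chow to HFCS its liver level of PSMB10 went up by 1.85, where the other 9 animals with both arrays changed by -0.12 to 0.45. PSMB8 went up by 1.13 (others -0.34 to 0.14), PSME1 by 1.10 (others -0.36 to 0.16) and PSME2 by 1.31 (others -0.26 to 0.24). In adipose of the same animal PSMB8 went up by 0.60, PSMB9 by 0.77, PSMB10 by 0.57, PSME1 by 0.53 and PSME2 by 0.75, each the largest change of the 12 animals, with the highest of the others at 0.29, 0.25, 0.56, 0.44 and 0.73. In its muscle the changes were -0.06 for PSMB8 (by another probe, detected on 6 of 24 muscle arrays), -0.05 for PSMB10, 0.16 for PSME1 and 0.15 for PSME2, within the range of the others. Of the antigen processing genes detected, 10 of 13 in liver, 7 of 14 in adipose and 0 of 11 in muscle had their largest rise in this animal, where the same held for 11.3, 7.89 and 7.87 percent of all genes. The mean of the leukocyte markers went up by 0.54 in its liver, where the highest of the others was 0.35, and by 0.20 in its adipose, and their part in the change was not tested. The difference of PSMB10 for HFCS in MUN in liver without the weak arrays, 0.50, rests on this animal, since the other 3 MUN animals with both arrays changed by 0.04 to 0.16.

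**Figure D5:**
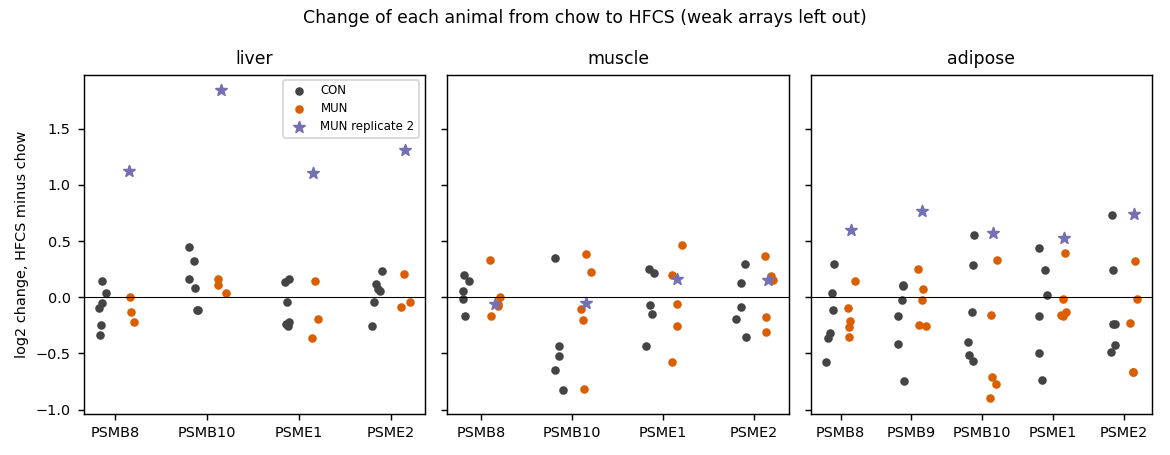
Change in log2 signal of each animal from chow to HFCS for the immunoproteasome subunits and the activators PSME1 and PSME2 in liver, muscle and adipose, without the weak arrays, with CON in grey, MUN in orange and MUN replicate 2 as a purple star. The star is the highest point of every gene in liver, up to 1.85 for PSMB10, and in adipose, and lies among the others in muscle. PSMB9 is shown only in adipose, where it was detected.

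The standard subunits varied together from array to array. Over the 325 pairs of 26 alpha, constitutive beta and 19S subunits, the median correlation of their deviations from the group means was 0.31 in liver (21 arrays), 0.29 in muscle (23 arrays) and 0.11 in adipose (24 arrays), where that over pairs of all genes was 0.00. It was above 0 for 88 percent of the pairs in liver, 84 percent in muscle and 68.3 percent in adipose, and for 49.9 percent of all pairs. The pairs share arrays and so share array quality, and these values carry no test. Between animals, 19 relations of the immunoproteasome subunits with each other, with their constitutive counterparts and with leukocyte markers were computed on animal means. None passed the Benjamini-Hochberg adjustment (smallest adjusted p = 0.256 for Pearson's r and 0.149 for Spearman's rho by permutation).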

How the data were processed

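Gene expression was measured by the study on human HumanHT-12 BeadChips with RNA of liver, skeletal muscle and omental adipose of the same baboons. The authors deposited the intensity of 47231 probes as GenomeStudio gave it, linear and not normalized. The same deposited table pairs each intensity with a detection score, near 1 for a bright probe although its column is headed as a p-value. The deposited normalized table holds quantile normalized intensity values of the authors on a linear scale and served as an alternative. The paper's methods name Partek, with no version of either tool given in the sources used here.

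Symbols came from the series' probe annotation (1 symbol per probe), and the brightest detected probe stood for a gene. No background correction was made. The log2 signals were quantile normalized within a tissue for MUN, CON, chow and HFCS, and over 72 arrays between tissues. Means of the groups were fitted in R 4.3.3 with limma 3.58.1, with both sexes together, and a call needed an FDR of 0.05 (Benjamini-Hochberg over all genes) and a 1.2-fold difference. The number of arrays limits the precision. The named genes are PSMB5 to PSMB10, PSME1, PSME2, the 4 called members with the largest difference in each direction per pair of tissues, the 4 of smallest p per comparison within a tissue, those next to the detection threshold, and up to 4 called genes of each other list. Further genes of each role were named after their values were seen. The members and lists were chosen with earlier results of these data known.

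Animals pair the arrays of the diets, as the labels number the same animals at both times. After group means were taken off, the 2 arrays of an animal correlated at a median of 0.368 in liver, 0.176 in muscle and 0.203 in adipose, over 0.1 in 11, 7 and 9 of 12 animals. The paper's methods name no pairing, so the animal was a block in an alternative only. Relations over animals used permutation tests in SciPy 1.17.1 with 100000 resamples, and figures matplotlib 3.10.9. The fits were tested on simulated data. Probes are human, so a baboon mismatch can dim a gene. No sequences are shown, as none were used here.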

Additional observations from a re-analysis of the deposited data

Results flagged for a closer look

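Of 136 groups of 6 arrays, weak ones included, of the catalytic subunits, the activators PSME1 and PSME2 and the role means, 26 held an array far from the others by Dixon's criterion, which chance gives in about 1 group in 20. In 17 of them it was a weak array. All levels here are log2 signals on the scale of the tissue, and no explanation was tested.

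MUN replicate 2 on HFCS was the highest for PSMB8 in liver, at 7.81 (others 6.70 to 7.09), and in adipose, at 8.57 (others 7.74 to 7.98). PSMB9 in adipose was lowest in MUN replicate 4 on chow, at 7.35 (others 7.49 to 7.57), and PSMB10 in adipose in CON replicate 5 on chow, at 10.21 (others 10.65 to 10.83). CON replicate 4 on HFCS was the lowest in liver for the mean of the alpha ring, at 8.97, and of the 19S non-ATPase subunits, at 7.75. MUN replicate 5 on HFCS was the lowest in muscle for the same means, at 9.83 and 8.86. MUN replicate 2 on chow was the lowest in adipose for the mean of the 19S non-ATPase subunits, at 8.65.

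Among the weak arrays, liver MUN replicate 4 on HFCS was the highest for PSMB5, at 10.75, and for the mean of the 19S non-ATPase subunits, at 8.76. It was the lowest for PSMB6, at 7.02, for PSME1, at 7.07, and for the means of the alpha ring and the constitutive beta ring, at 8.17 and 8.34. Liver MUN replicate 4 on chow was the lowest for PSME2, at 6.68, and MUN replicate 6 on chow for the mean of the constitutive beta ring, at 8.54. Muscle CON replicate 5 on chow was the highest for PSMB8 (by a probe detected on 6 of 24 muscle arrays), at 7.31, and for PSMB7, at 11.45. It was the lowest for PSMB5, at 9.14, PSMB6, at 7.07, and PSME1, at 7.66, and for the means of the alpha ring, at 7.77, the constitutive beta ring, at 8.10, the 19S ATPases, at 7.77, and the 19S non-ATPase subunits, at 7.61.

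The change from chow to HFCS was compared between CON and MUN for 118 pairs of gene and tissue. In 0 of them did every CON animal move one way and every MUN animal the other.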

How the results depend on the processing

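Within tissues 0 members were called under every alternative run, including leaving out each animal in turn (0 to 0 in all 18 comparisons) and the animal as a replicate block (0). Between tissues the replicate block gave 7 higher and 21 lower in liver against muscle, 7 and 9 in adipose against liver and 7 and 21 in adipose against muscle, as without it, and changed no call. The counts stayed within 1.5 times of the given ones with the authors' values, normexp correction, no fold threshold, every probe tested, and without the weak arrays. The exceptions were median scaling, with 18 higher and 3 lower in adipose against liver, and detection in each tissue, which left 36 genes tested and gave 1 higher in adipose against liver and 4 higher in adipose against muscle. Under median scaling 33.4 percent of all genes were higher and 19.8 percent lower in adipose against liver. With detection in each tissue 25.2 percent were higher in adipose against liver and 25.6 percent against muscle. Median scaling moved the median of all genes in adipose against liver from 0.04 to 0.10 and that of the members from 0.03 to 0.28, and the cause was not tested.

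Single genes changed sign as follows. Under median scaling the adipose minus liver difference was 0.126 for PSMB5, 0.0611 for PSMB6 and 0.0879 for PSME2, and PSMB7 was at 5.18e-05 in adipose minus muscle. With detection in each tissue PSMB7 was at -0.0939 in adipose minus liver. Without the 4 weak arrays, and also without the muscle array with hepatocyte markers, PSME1 was at -0.00166 in both settings in adipose minus liver. In liver PSMA3 was at -0.0253 with array weights and at -0.00167 without the weak arrays and with sex as a term, for MUN against CON on chow, and PSMG4 at 0.0193 in the last setting for the difference of changes. For PSMA1 in liver, detection on all 24 arrays, where another probe stood for the gene, gave 0.14 for MUN against CON on HFCS, 0.0558 for HFCS in MUN, 0.0429 for HFCS over both groups and 0.0258 for the difference of changes. Relations of animal means are descriptions without a call, and with deviations from the maternal group mean the r of leukocyte markers with PSMB9 in adipose was -0.0137 and with PSMB10 0.0232. The alternative without the weak arrays and the muscle array with hepatocyte markers was chosen after seeing the data. The chip as a block was not run, because the files used here name no chip.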

Other observations

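Leukocyte markers and the immunoproteasome were also set against each other between animals, with the weak arrays left out and each animal's chow and HFCS arrays averaged. In liver the mean of 14 leukocyte markers and PSMB10 had r = 0.70 and rho = 0.77 over 11 animals (permutation p = 0.0155 and 0.00783, adjusted p = 0.256 and 0.149 over 19 relations), and r = 0.74 without the 2 animals farthest from the median. PSMB8 and PSMB10 in liver had r = 0.64 and rho = 0.68. The same markers had r = 0.22 with PSMB8 in liver. In muscle 10 leukocyte markers had r = -0.59 and rho = -0.62 with PSMB8 over 12 animals, by another probe than in liver that was detected on 6 of 24 muscle arrays, and r = 0.24 with PSMB10. PSMB8 and PSMB9 in adipose had r = 0.47 and rho = 0.45, and r = -0.15 without 2 animals, so that relation rests on those animals. None of these passed the adjustment over the 19 relations.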
